A study of Mus musculus with 9 samples.

Results

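The genes described here are 10 members of the BCL2 family, named by symbol from the 16500 genes with a deposited expression value. The members were chosen with earlier results of these data known. They fall into 4 survival genes (Bcl2, Bcl2l1, Mcl1, Bcl2a1b), 2 effector genes (Bax, Bak1) and 4 BH3-only genes (Bcl2l11, Bbc3, Pmaip1, Bid). Primary CD4+ T cells isolated from C57BL/6 mice had been given 1 of 3 retroviral vectors before their RNA was sequenced as paired ends, with 3 libraries per vector and 9 in all. The Control group received the CTRL vector, the NFAT2_CA group a vector for constitutively active NFAT2, and the NFAT2_CARIT group the same active form with the RIT changes, which impair cooperation of NFAT2 with AP-1. All 3 groups therefore carried a retrovirus, and all were kept in RPMI medium with fetal bovine serum. Below, "both vectors", "either vector" and "the vectors" mean those for NFAT2_CA and NFAT2_CARIT, not the CTRL vector. NFAT2, the product of Nfatc1, is a transcription factor switched on by calcium signals from the T cell receptor. The sources used here do not state the share of transduced cells, any stimulation of the cells or the time of harvest. Whether replicate libraries stem from different mice or different cultures is not stated in the labels. The p-values therefore reflect only how much these libraries vary within a group, which may be technical.

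The BCL2 family sets the threshold for the mitochondrial route of cell death. BAX and BAK, once activated, open the outer mitochondrial membrane and release cytochrome c, which starts the caspase cascade. The survival proteins BCL2, BCL-XL (from Bcl2l1), MCL1 and A1 (from Bcl2a1b) hold BAX and BAK in check, and the BH3-only proteins BIM (Bcl2l11), PUMA (Bbc3), NOXA (Pmaip1) and BID bind the survival proteins or activate the effectors directly. NOXA binds chiefly MCL1 and A1, whereas BIM and PUMA bind every survival protein. In T cells, BCL2 and MCL1 keep resting cells alive under cytokines such as IL-7, BCL-XL and A1 are induced on activation, and BIM drives the loss of activated cells once an immune response ends.

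Promoters of the members were read from RefSeq on build GRCm38.p6 as windows of 300 bases, 250 before and 50 after each annotated start. A window could be shown for 9 of the 10 members, all but Pmaip1. Each was searched on both strands for GGAAA, the core that NFAT proteins recognise, for TGANTCA, which AP-1 recognises, and for GTAAACA, which FOXO factors recognise. No match of one overlaps a match of another in the windows printed here. The windows of Bcl2, Mcl1 and Bid are shown because these 3 genes fell with both vectors, that of Bcl2a1b because it rose with both and holds GGAAA and TGANTCA together, and the first of 2 for Bcl2l11 because it holds no GGAAA. Matches are in capitals, where TTTCC is GGAAA read on the other strand.
Bcl2 (chr1:106714241-106714540, minus strand): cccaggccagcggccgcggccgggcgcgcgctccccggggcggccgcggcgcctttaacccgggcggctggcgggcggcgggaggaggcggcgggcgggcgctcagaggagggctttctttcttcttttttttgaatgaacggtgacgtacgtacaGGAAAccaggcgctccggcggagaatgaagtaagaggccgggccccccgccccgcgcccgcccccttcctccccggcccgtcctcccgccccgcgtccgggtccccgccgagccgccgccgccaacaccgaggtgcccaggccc
Mcl1 (chr3:95658471-95658770, plus strand): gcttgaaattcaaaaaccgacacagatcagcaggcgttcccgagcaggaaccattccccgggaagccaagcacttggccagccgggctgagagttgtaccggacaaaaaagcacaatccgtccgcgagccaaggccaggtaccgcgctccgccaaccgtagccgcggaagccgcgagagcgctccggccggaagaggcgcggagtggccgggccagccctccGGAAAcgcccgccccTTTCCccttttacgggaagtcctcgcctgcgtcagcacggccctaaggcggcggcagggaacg
Bid (chr6:120916775-120917074, minus strand): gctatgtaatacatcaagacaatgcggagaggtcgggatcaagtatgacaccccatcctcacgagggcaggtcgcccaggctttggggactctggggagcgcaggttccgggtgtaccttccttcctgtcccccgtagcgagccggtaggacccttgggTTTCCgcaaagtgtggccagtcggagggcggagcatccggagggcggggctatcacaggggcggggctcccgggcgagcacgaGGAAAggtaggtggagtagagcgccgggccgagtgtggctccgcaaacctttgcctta
Bcl2a1b (chr9:89199023-89199322, plus strand): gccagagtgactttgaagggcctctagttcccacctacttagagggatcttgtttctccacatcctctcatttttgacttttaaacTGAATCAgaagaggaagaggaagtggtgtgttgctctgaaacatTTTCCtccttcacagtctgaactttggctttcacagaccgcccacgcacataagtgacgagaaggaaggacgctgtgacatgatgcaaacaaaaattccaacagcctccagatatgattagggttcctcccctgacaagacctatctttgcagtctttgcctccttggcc
Bcl2l11 (chr2:128125788-128126087, plus strand): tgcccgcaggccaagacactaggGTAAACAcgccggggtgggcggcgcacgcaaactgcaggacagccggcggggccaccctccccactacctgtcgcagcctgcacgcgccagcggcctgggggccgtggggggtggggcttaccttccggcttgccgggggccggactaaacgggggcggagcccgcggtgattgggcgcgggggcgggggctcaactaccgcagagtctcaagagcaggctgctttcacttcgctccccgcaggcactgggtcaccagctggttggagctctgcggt

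Of the 14 windows of these 9 members, 10 (71.4%) held GGAAA, against 61.3% of 32817 windows of the same length over the genome. The AP-1 letters were found in 1 of the 14 windows (7.14%), that of Bcl2a1b, against 7.8% of all windows. The FOXO letters were found in 2 windows (14.3%), the first of Bcl2l11 and the second of 3 for Bbc3, against 3.6% of all. In the Bcl2a1b window TGAATCA began 164 bases and TTTCC 120 bases before the start. These are matches of letters in 1 stretch of DNA, not measured binding sites. The 5-letter core is present in most windows, and it was found beside genes that rose (Bcl2a1b) as well as genes that fell (Bcl2, Mcl1, Bid).

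In the library with the fewest reads 1 CPM was worth an estimated 19.9 reads, and in the deepest 38.2 reads, judged by the steps between low values. The member values rest on an estimated 80 reads (Bid, in 1 NFAT2_CARIT library) to 17669 reads (Mcl1). Nfatc1, the gene of the factor that the vectors carry, had a mean of 213 CPM (reads of a gene per 1000000 reads of the library) in Control, 358 with NFAT2_CA and 246 with NFAT2_CARIT. Its rise over Control was 0.74 on the log2 scale with NFAT2_CA (limma, adjusted p = 3.59e-07) and 0.21 with NFAT2_CARIT (adjusted p = 0.0229). The latter call was lost without Control replicate 3 (0.12, adjusted p = 0.102), NFAT2_CARIT replicate 2 (0.21, adjusted p = 0.0548) or NFAT2_CARIT replicate 3 (0.19, adjusted p = 0.0703), and in the authors' deposited table (0.21, adjusted p = 0.192). The Nfatc1 values do not separate transcript of the cells' own gene from that of a vector, and the part of each was not tested. All 7 CD4 T cell markers were present, with Cd4 at 1500 to 1700 CPM. Thy1, however, went from 4520 to 4990 CPM in Control to 632 to 662 CPM with either vector. The 2 CD8 T cell markers summed to 12.5 to 13.7 CPM in Control, 28.4 to 30.8 with NFAT2_CA and 22.6 to 24.0 with NFAT2_CARIT, nearly all of it Cd8b1. The 4 of 7 myeloid markers with a value summed to 11.0 to 13.1, 7.29 to 7.67 and 9.53 to 12.2 CPM in the same order, and the 2 of 5 B cell markers to at most 3.46 CPM. The 1 of 7 erythroid and platelet markers with a value reached at most 0.528 CPM, and the 3 NK cell markers were not analysed here. The part of these other cells in the results was not tested.

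With both active forms of NFAT2, Pmaip1 was 4.50-fold and 4.81-fold and Bcl2a1b 2.13-fold and 2.63-fold higher than in Control (NFAT2_CA and NFAT2_CARIT), and Bid, Bcl2 and Mcl1 were lower. The effector genes Bax and Bak1 differed by less than 0.25 on the log2 scale in both comparisons. With NFAT2_CA, 9 of the 10 members passed the test against Control (3 higher, 6 lower), where 65.5% of the 13090 genes tested did so (29.0% higher and 36.5% lower). All 10 members had no overlap between the NFAT2_CA and Control libraries, as had 68.3% of all genes tested. With NFAT2_CARIT 7 of 10 passed (4 higher, 3 lower), where 70.3% of all genes tested did so (29.2% higher and 41.1% lower), and 7 members had no overlap between groups, beside 73.1% of all genes. The share of members called with NFAT2_CARIT was thus near that of all genes. The median absolute difference of the members was 0.39 and 0.45 on the log2 scale, beside 0.37 and 0.42 over all genes tested. Both comparisons use the same 3 Control libraries. Scaling by TMM factors, which centres each library on genes of middling change, moved the median of all genes by 0.07 with NFAT2_CA and 0.11 with NFAT2_CARIT. Under it, 8 members were called with NFAT2_CA, 4 higher and 4 lower, as Bax and Bak1 lost their calls and Bcl2l11 gained one, and the 7 members called with NFAT2_CARIT kept their direction and call. Over all genes TMM scaling turned 3794 higher and 4779 lower calls into 4348 and 4077 for NFAT2_CA, and 3822 and 5377 into 4618 and 4431 for NFAT2_CARIT. In bulk RNA, fewer cells of a type and less RNA per cell cannot be told apart.

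**Figure D1:**
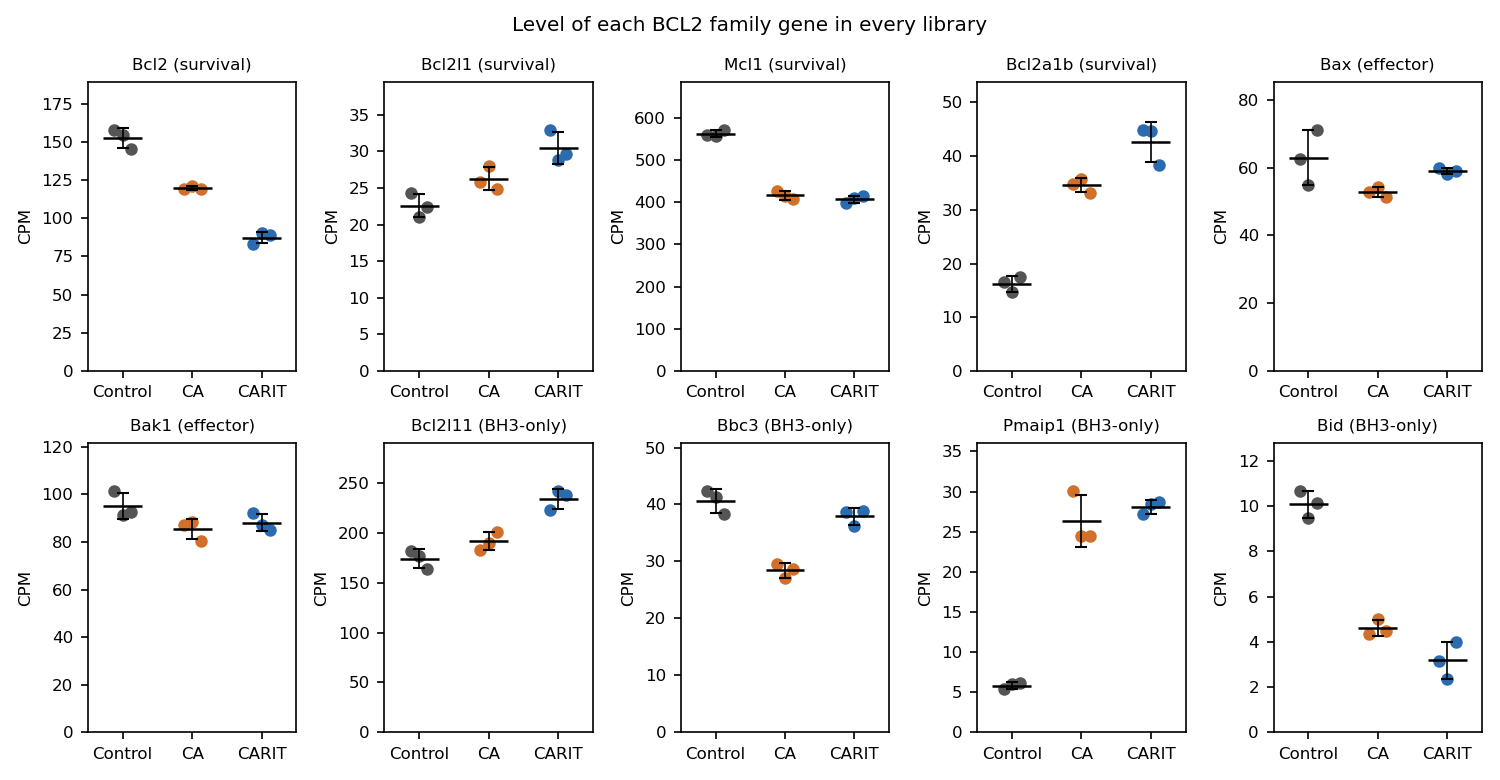
Level of each member in every library, in CPM, with a linear axis from 0; each point is 1 library, the horizontal line is the mean and the bar is 1 SD (n = 3). Pmaip1 lies between 5.35 and 6.12 CPM in Control and between 24.4 and 30.04 with either vector, while Bcl2 steps down from Control to CA (NFAT2_CA) to CARIT (NFAT2_CARIT) with no overlap.

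Among the survival genes, 2 fell and 2 rose with each vector. Bcl2 (chromosome 1, 106538178 to 106714274, minus strand, GRCm38), which encodes the founding member of the family, was at 158.0, 154.3 and 145.1 CPM in the Control libraries, 119.4, 121.1 and 119.0 with NFAT2_CA and 83.0, 90.2 and 88.7 with NFAT2_CARIT. The 3 groups did not overlap: every library with NFAT2_CA lay below every Control library and above every library with NFAT2_CARIT. The mean of 152 ± 6.64 CPM in Control (SD, n = 3) compared with 120 ± 1.10 and 87.3 ± 3.79, a level 1.27-fold and 1.75-fold lower. The fitted difference was -0.34 ± 0.06 (SE, log2) for NFAT2_CA (limma, adjusted p = 5.55e-05) and -0.80 ± 0.06 for NFAT2_CARIT (adjusted p = 2.76e-09). Both calls of Bcl2 were kept in the authors' deposited table.

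Mcl1 (chromosome 3, 95658788 to 95663176, plus strand) encodes a short-lived survival protein on which T cells depend at all stages. Its level was 560.7, 556.7 and 572.3 CPM in Control, 427.0, 416.2 and 406.8 with NFAT2_CA and 397.5, 410.3 and 414.0 with NFAT2_CARIT. Both vectors left it below every Control library, by a similar amount, and their own libraries overlapped. The means were 563 ± 8.08, 417 ± 10.1 and 407 ± 8.63 CPM, 1.35-fold and 1.38-fold below Control, with differences of -0.43 ± 0.05 (adjusted p = 1.44e-06) and -0.47 ± 0.05 (adjusted p = 5.24e-07).

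Bcl2a1b (chromosome 9, 89199209 to 89207827, plus strand) encodes A1, a survival protein induced by antigen receptor and NF-kappaB signals. It stood at 16.6, 14.6 and 17.5 CPM in Control, 34.8, 35.8 and 33.1 with NFAT2_CA and 44.9, 44.8 and 38.3 with NFAT2_CARIT. No library of either vector was near the Control range. Mean levels were 16.2 ± 1.47, 34.6 ± 1.35 and 42.6 ± 3.80 CPM, 2.13-fold and 2.63-fold above Control, with differences of 1.05 ± 0.08 (adjusted p = 1.23e-08) and 1.34 ± 0.08 (adjusted p = 4.8e-10). In the annotation, 49.1% of its exon bases also belong to Gm29094 on the same strand, a gene not analysed here, and mice carry near-identical A1 copies. The copy Bcl2a1d was at 1.87 to 3.33 CPM over all 9 libraries and was not called in any comparison. The sources used here do not state how reads were divided among the copies. A1 is also abundant in myeloid cells. Of the 4 myeloid markers with a value, Itgam was at 6.83 to 9.29 CPM in Control, 0.632 to 0.796 with NFAT2_CA and 0.916 to 1.70 with NFAT2_CARIT, and Cd68 was at 3.69 to 4.50, 5.57 to 5.95 and 7.23 to 8.81 CPM. Cd14 was at 0 to 0.085, 0.781 to 1.05 and 0.351 to 0.707 CPM, and Itgax at most 0.112 CPM in Control and with NFAT2_CA and 0.681 to 1.35 with NFAT2_CARIT. Their part in the Bcl2a1b result was not tested.

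Bcl2l1 (chromosome 2, 152780668 to 152831728, minus strand), the gene for BCL-XL, was at 24.3, 21.1 and 22.4 CPM in Control, 25.8, 27.99 and 24.9 with NFAT2_CA and 33.0, 28.9 and 29.7 with NFAT2_CARIT. The 3 groups did not overlap, and the gap between the Control and NFAT2_CA ranges was narrow. Its rise was 0.42 ± 0.08 with NFAT2_CARIT (adjusted p = 0.000207) and 0.21 ± 0.08 with NFAT2_CA (adjusted p = 0.0303). The NFAT2_CA call was lost without Control replicate 2 (0.16, adjusted p = 0.127), Control replicate 3 (0.20, adjusted p = 0.0525), NFAT2_CA replicate 1 (0.22, adjusted p = 0.0548) or NFAT2_CA replicate 2 (0.16, adjusted p = 0.126).

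The effector genes differed little from Control. Bax (chromosome 7, 45461697 to 45466898, minus strand), whose product moves from the cytosol to mitochondria when activated, was at 62.5, 55.1 and 71.2 CPM in Control, 52.8, 54.3 and 51.3 with NFAT2_CA and 59.8, 58.2 and 59.1 with NFAT2_CARIT. The Control libraries of Bax were more scattered (SD 8.10 CPM) than those with NFAT2_CA or NFAT2_CARIT (SD 1.49 and 0.811 CPM). The NFAT2_CARIT libraries lay inside the Control range. Its difference was -0.24 ± 0.08 with NFAT2_CA (adjusted p = 0.0111), a call lost without Control replicate 3 (-0.15, adjusted p = 0.0544) and with TMM scaling (-0.17, adjusted p = 0.0649). With NFAT2_CARIT the difference of Bax was -0.08 (95% interval -0.25 to 0.08, adjusted p = 0.347), or 0.03 with TMM scaling and 0.01 without Control replicate 3. It was called lower without Control replicate 2 (-0.17, adjusted p = 0.0452).

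Bak1 (chromosome 17, 27019810 to 27029009, minus strand), whose product sits in the mitochondrial membrane, was at 101.3, 91.5 and 92.8 CPM in Control, 87.0, 88.6 and 80.6 with NFAT2_CA and 92.2, 87.3 and 85.0 with NFAT2_CARIT. The NFAT2_CA libraries lay below all Control libraries, and the NFAT2_CARIT range overlapped both. Its difference was -0.16 ± 0.06 with NFAT2_CA (adjusted p = 0.0382) and -0.11 with NFAT2_CARIT (95% interval -0.24 to 0.02, adjusted p = 0.129), the latter 0.01 with TMM scaling. The NFAT2_CA call for Bak1 was lost without Control replicate 1 (-0.11, adjusted p = 0.174), NFAT2_CA replicate 1 (-0.17, adjusted p = 0.0592), NFAT2_CA replicate 3 (-0.11, adjusted p = 0.144) or NFAT2_CARIT replicate 2 (-0.16, adjusted p = 0.0557), with TMM scaling (-0.08, adjusted p = 0.308) and with only the 6 libraries compared (-0.16, adjusted p = 0.0541).

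The 4 BH3-only genes went different ways. Pmaip1 (chromosome 18, 66458533 to 66465565, plus strand) encodes NOXA, a partner of MCL1 and A1. It was at 5.35, 6.05 and 6.12 CPM in Control, 30.04, 24.4 and 24.5 with NFAT2_CA and 27.2, 28.4 and 28.7 with NFAT2_CARIT. The lowest library of either vector was thus far above the highest Control library. Means of 5.84 ± 0.424, 26.3 ± 3.24 and 28.1 ± 0.835 CPM put it 4.50-fold and 4.81-fold above Control, with differences of 1.99 ± 0.09 (adjusted p = 1.59e-11) and 2.09 ± 0.09 (adjusted p = 7.46e-12). This was the largest difference of any member, and 2.99% and 3.18% of all genes tested had a larger one in these 2 comparisons.

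Bid (chromosome 6, 120891930 to 120916853, minus strand), which links death receptors and caspase-8 to mitochondria, was at 10.7, 9.46 and 10.1 CPM in Control, 4.36, 4.995 and 4.47 with NFAT2_CA and 3.17, 2.36 and 4.01 with NFAT2_CARIT. No library with either vector was above 4.995 CPM, and no Control library was below 9.46 CPM. It was 2.19-fold lower with NFAT2_CA (-0.98 ± 0.14, adjusted p = 1.08e-05) and 3.17-fold lower with NFAT2_CARIT (-1.42 ± 0.14, adjusted p = 1.26e-07). The annotation places 17.7% of its exon bases opposite exons of Bcl2l13, a gene at 52.1 to 59.1 CPM in Control, 61.1 to 66.5 with NFAT2_CA and 64.1 to 69.9 with NFAT2_CARIT. Bcl2l13 rose with both vectors by limma (0.22, adjusted p = 0.0075, and 0.26, adjusted p = 0.00238) but was not called in the authors' deposited table (adjusted p = 0.459 and 0.315). The part of shared reads in the Bid result was not tested. The sources used here do not state whether strand was used in counting.

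Bcl2l11 (chromosome 2, 128126038 to 128162547, plus strand), the gene for BIM, was at 181.6, 176.9 and 163.2 CPM in Control, 183.0, 189.8 and 200.8 with NFAT2_CA and 222.4, 241.4 and 237.5 with NFAT2_CARIT. The NFAT2_CARIT libraries stood clear of the other 6, while the lowest NFAT2_CA library was next to the highest Control library. Bcl2l11 rose by 0.43 ± 0.06 with NFAT2_CARIT (adjusted p = 1.04e-05), from 174 ± 9.60 to 234 ± 10.0 CPM. With NFAT2_CA its difference was 0.14 (95% interval 0.01 to 0.27, adjusted p = 0.0582), which did not pass the threshold. It did so without Control replicate 1 (0.17, adjusted p = 0.0425) and with TMM scaling (0.21, adjusted p = 0.00594).

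Bbc3 (chromosome 7, 16308393 to 16318205, plus strand), the gene for the p53 target PUMA, was at 42.3, 41.3 and 38.2 CPM in Control, 29.6, 27.0 and 28.8 with NFAT2_CA and 38.7, 36.2 and 38.9 with NFAT2_CARIT. The NFAT2_CA libraries stood alone, below all 6 others. It fell by 0.50 ± 0.07 with NFAT2_CA (adjusted p = 7.33e-06), whereas with NFAT2_CARIT the difference was -0.10 (95% interval -0.24 to 0.05, adjusted p = 0.219), or 0.02 with TMM scaling. Trp53, which encodes p53 and is named here after its values were seen, fell with both vectors (-0.65 in each, adjusted p = 2.31e-07 and 2.27e-07).

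**Figure D2:**
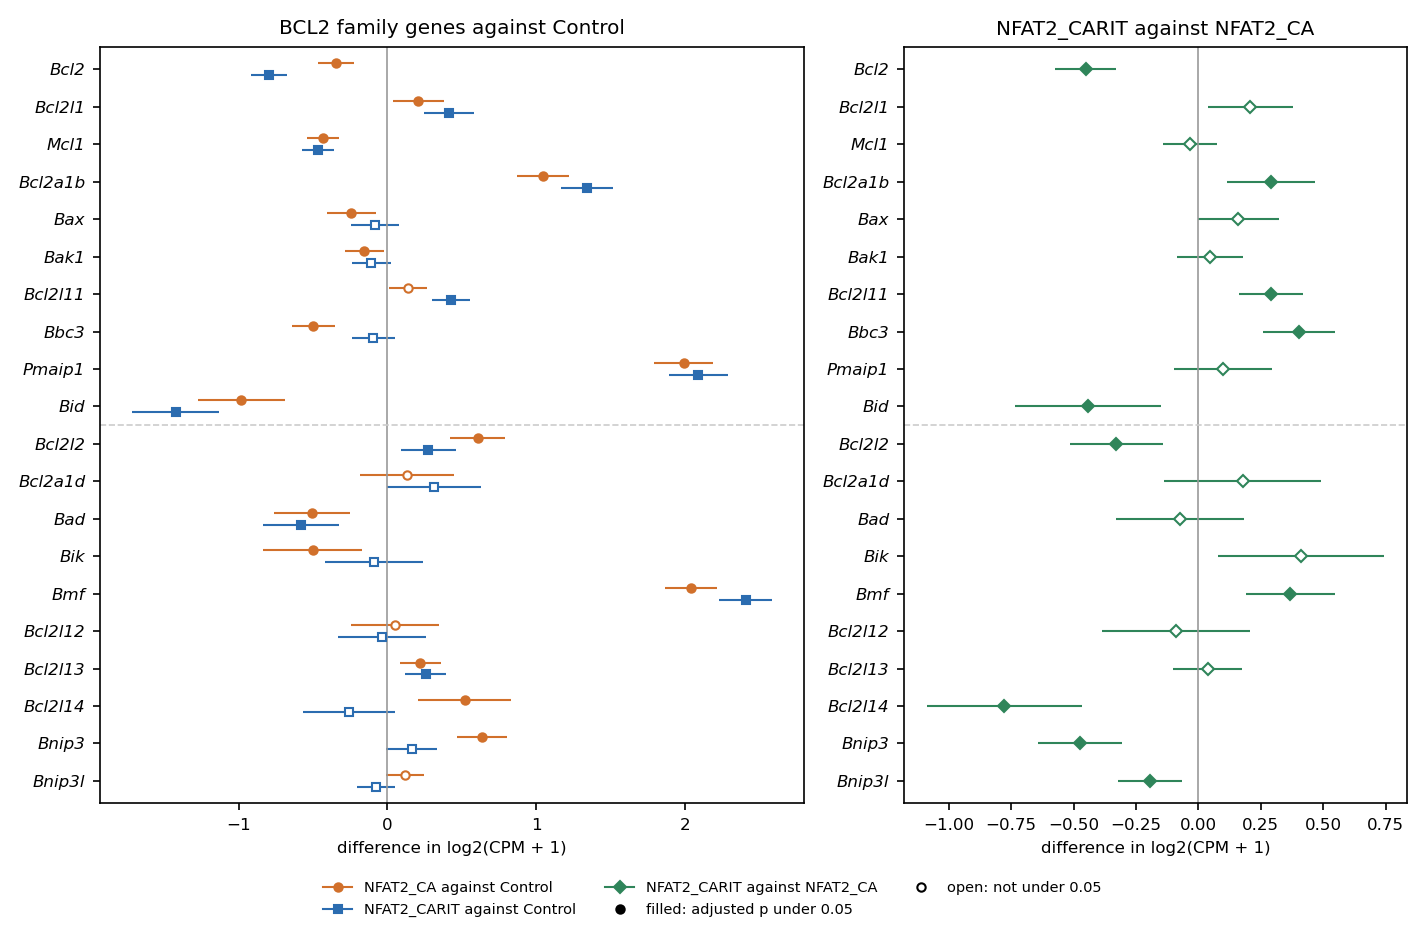
Fitted difference in log2(CPM + 1) with its 95% interval for the 10 members (above the dashed line) and 10 other family genes (below it); left, each vector against Control; right, NFAT2_CARIT against NFAT2_CA on its own scale. Filled symbols have an adjusted p under 0.05. Pmaip1 and Bmf lie farthest to the right with both vectors and Bid farthest to the left.

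The direct comparison of the vectors asks which of these differences are altered with the RIT changes, which impair cooperation of NFAT2 with AP-1. The level of Nfatc1 also differed, with a mean of 246 CPM with NFAT2_CARIT and 358 with NFAT2_CA. In the authors' deposited table this difference was -0.54 (adjusted p = 0.000205). The RIT changes and the Nfatc1 level cannot be told apart in this comparison, and the part of each was not tested. That level is not a measure of NFAT2 made from each vector, as the cells' own transcript was not separated. Of the members, 5 of 10 were called between NFAT2_CARIT and NFAT2_CA (3 higher and 2 lower with NFAT2_CARIT), where 28.6% of all genes tested were (11.8% higher and 16.7% lower). For 7 members the libraries of the 2 vectors did not overlap, beside 44.0% of all genes. With TMM scaling the genes called were 1977 higher and 1824 lower, in place of 1551 and 2191, and 6 members were called. The members called without TMM scaling were Bcl2, Bcl2a1b, Bcl2l11, Bbc3 and Bid. Their number was 3 without NFAT2_CARIT replicate 1 and 3 without NFAT2_CARIT replicate 2.

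Bcl2 was lower with NFAT2_CARIT than with NFAT2_CA by 0.45 on the log2 scale (-0.45 ± 0.06, adjusted p = 2.11e-05), and 11.6% of all genes tested had a larger difference. Bbc3 was higher by 0.40 ± 0.07 (adjusted p = 0.000348) and Bcl2l11 by 0.29 ± 0.06 (adjusted p = 0.00199). For these 3 genes the 2 groups did not overlap, and the call was kept with every single library left out. Relative to Control, Bcl2 and Bcl2l11 were thus farther away with NFAT2_CARIT, and Bbc3 was nearer.

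Bcl2a1b was higher by 0.29 ± 0.08 (adjusted p = 0.0149), a call lost without NFAT2_CA replicate 3 (0.26, adjusted p = 0.0501), NFAT2_CARIT replicate 1 (0.25, adjusted p = 0.066) or NFAT2_CARIT replicate 2 (0.26, adjusted p = 0.0751). Bid was lower by 0.44 (-0.44 ± 0.14, adjusted p = 0.0251). That call was lost without NFAT2_CA replicate 2 (-0.39, adjusted p = 0.0904), NFAT2_CARIT replicate 1 (-0.45, adjusted p = 0.052) or NFAT2_CARIT replicate 2 (-0.29, adjusted p = 0.137), and with quantile normalization (-0.35, adjusted p = 0.072). Both genes therefore differed between the vectors by an amount close to what 1 library can decide.

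The other 5 members were not called between the vectors. Pmaip1 differed by 0.10 (95% interval -0.10 to 0.30, adjusted p = 0.47), so the interval leaves room for a small difference in either direction beside a rise of about 2 over Control. Mcl1 differed by -0.03 (95% interval -0.14 to 0.08, adjusted p = 0.68), or 0.01 with TMM scaling, and Bak1 by 0.05 (95% interval -0.09 to 0.18, adjusted p = 0.628). Bcl2l1 differed by 0.21 (95% interval 0.04 to 0.38, adjusted p = 0.0615) and was called with TMM scaling (0.25, adjusted p = 0.0312), with quantile normalization (0.25, adjusted p = 0.0312) and with only the 6 libraries compared (0.21, adjusted p = 0.0499). Bax differed by 0.16 (95% interval 0.00 to 0.32, adjusted p = 0.136) and was called without Control replicate 3 (0.16, adjusted p = 0.0471) and with only the 6 libraries compared (0.16, adjusted p = 0.0426).

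The authors' deposited table called fewer members than limma did. For NFAT2_CA against Control it called 4 of the 10 (Bcl2 and Mcl1 lower, Bcl2a1b and Pmaip1 higher), beside 21.9% of its 16477 genes. For NFAT2_CARIT against Control the deposited table called 6 (these 4, Bcl2l11 higher and Bid lower), beside 25.6%. Between the vectors the deposited table called Bcl2 alone (adjusted p = 0.0175), beside 2.84% of its genes. In the authors' deposited table the adjusted p for NFAT2_CA against Control was 0.69 for Bcl2l1, 0.418 for Bax, 0.575 for Bak1, 0.0808 for Bbc3 and 0.125 for Bid, and it was 0.239 for Bcl2l1 with NFAT2_CARIT. Between the vectors the deposited table gave 0.189 for Bcl2l11, 0.716 for Bbc3 and 1.0 for Bcl2a1b and Bid. Its log2 ratios had the same sign as the limma differences for all of these genes.

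Levels per kilobase of exon were used to rank the members within a group. The length was that of all annotated exons of a gene, whichever transcripts were expressed. The ranks and the sums below depend on it. Per kilobase, Mcl1 was the most abundant member in every group, at 165, 122 and 119 CPM per kb in Control, NFAT2_CA and NFAT2_CARIT. Bcl2a1b ranked 5 in Control at 19.9 CPM per kb, within the spread of Bcl2l11 (21.7) and Bbc3 (19.1), and 2 with either vector (42.3 and 52.2). Pmaip1 was the lowest of all in Control (2.14) and passed Bcl2l1 and Bid with NFAT2_CA (9.63), while with NFAT2_CARIT (10.3) it also passed Bcl2 (9.54). Bax and Bak1 were not separable in any group (39.9 and 39.5, 33.5 and 35.5, 37.5 and 36.6 CPM per kb), nor were Bbc3 and Bcl2 with NFAT2_CA (13.4 and 13.1). Bid was at 2.84, 1.30 and 0.896 CPM per kb, the lowest member with both vectors.

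**Figure D3:**
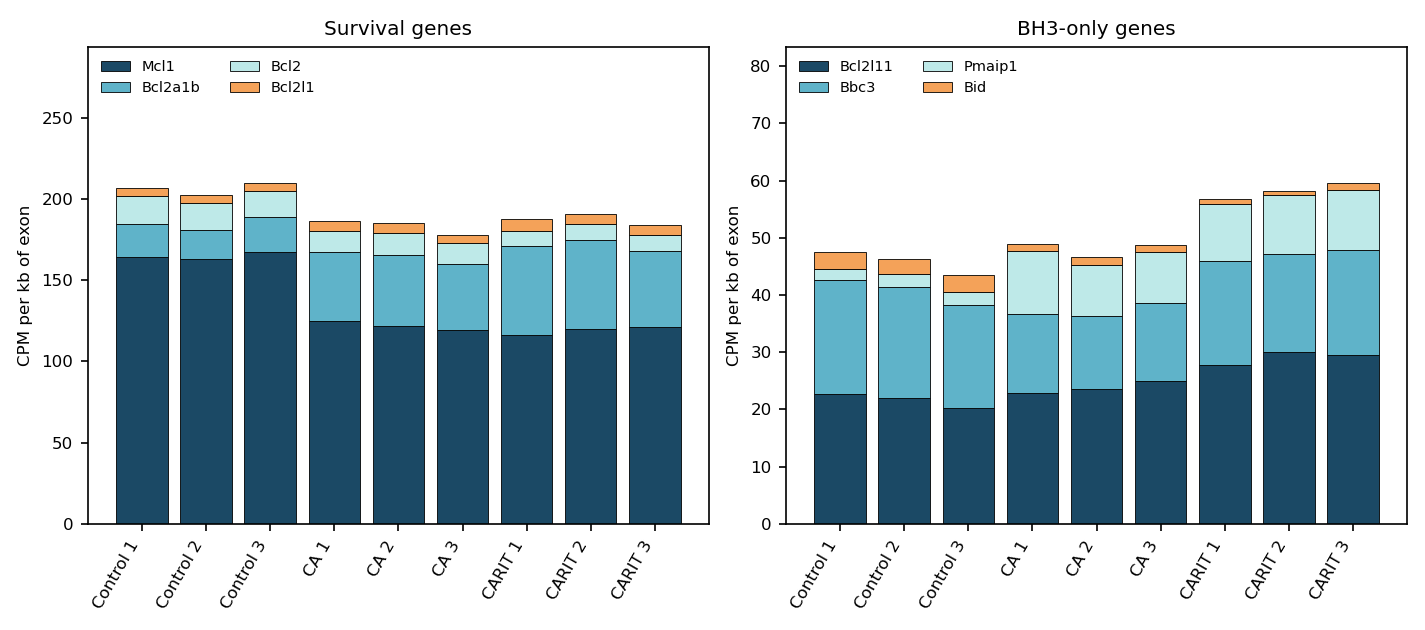
Stacked level per kilobase of exon, in CPM per kb, of the 4 survival genes (left) and the 4 BH3-only genes (right) in each of the 9 libraries; both axes start at 0 and have different scales. The survival total is 202 to 210 in Control and 178 to 191 with either vector, and the BH3-only total is highest in the 3 CARIT (NFAT2_CARIT) libraries.

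Summed over genes, the survival transcripts amounted to 207, 202 and 210 CPM per kb in the Control libraries, 186, 185 and 178 with NFAT2_CA and 188, 191 and 184 with NFAT2_CARIT. The BH3-only transcripts amounted to 47.5, 46.3 and 43.4, then 49.0, 46.7 and 48.8, then 56.8, 58.2 and 59.5. The survival sum was thus below Control with both vectors, and the BH3-only sum was above the other groups with NFAT2_CARIT. The ratio of the sums was 4.52 ± 0.270 in Control, 3.80 ± 0.154 with NFAT2_CA and 3.23 ± 0.116 with NFAT2_CARIT (SD, n = 3), without overlap between groups. These sums over chosen genes are descriptions of transcript levels and were not tested. They hold members only and leave out other genes of the family. The BH3-only gene Bmf was at 1.63, 7.31 and 9.49 CPM per kb in Control, NFAT2_CA and NFAT2_CARIT. In the same order Bad was at 5.25, 3.58 and 3.40, and Bik, also BH3-only, at 1.49, 0.868 and 1.36. The survival gene Bcl2l2 was at 3.28, 5.10 and 4.02 CPM per kb.

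The shares of single genes in each sum differed between groups. Mcl1 gave 79.3 to 80.5% of the survival sum in Control, 65.8 to 67.1% with NFAT2_CA and 62.0 to 65.8% with NFAT2_CARIT. The share of Bcl2a1b went from 8.86 to 10.2% in Control to 22.8 to 23.7% and 25.4 to 29.3%, and the mean share of Bcl2 was 8.08 ± 0.449%, 7.15 ± 0.149% and 5.09 ± 0.223%. In the BH3-only sum Pmaip1 went from 4.13 to 5.16% to 18.4 to 22.5% and 17.5 to 17.9%. Set against its partner MCL1, the level of Pmaip1 per kilobase was 0.0119 to 0.0136 of that of Mcl1 in Control, 0.0734 to 0.0880 with NFAT2_CA and 0.0854 to 0.0868 with NFAT2_CARIT. The ratio of Bcl2l11 to Bcl2 in CPM, a pair whose balance governs survival of resting T cells, was 1.12 to 1.15, 1.53 to 1.69 and 2.68 in all 3 NFAT2_CARIT libraries.

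Beyond these members, 16 further genes of the family were listed, of which 11 had a value and 10 were tested. With NFAT2_CA 5 rose and 2 fell, and with NFAT2_CARIT 3 rose and 1 fell, so 70.0% and 40.0% were called beside 65.5% and 70.3% of all genes. Bmf, which encodes a BH3-only protein tied to the cytoskeleton, had the largest rise: it was at 9.52, 8.32 and 7.92 CPM in Control, 35.6, 38.5 and 41.1 with NFAT2_CA and 48.8, 53.5 and 47.3 with NFAT2_CARIT. That was 4.47-fold and 5.81-fold above Control (2.04 ± 0.08, adjusted p = 3.04e-12, and 2.41 ± 0.08, adjusted p = 3.26e-13), with all 9 libraries in 3 separate ranges. Bmf was also higher with NFAT2_CARIT than with NFAT2_CA (0.37 ± 0.08, adjusted p = 0.00349), though not by the authors' deposited table (adjusted p = 0.965).

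Bad, a BH3-only gene whose product is silenced by growth factor signals, fell from 13.4 ± 1.15 to 9.16 ± 1.05 CPM with NFAT2_CA and 8.69 ± 1.47 CPM with NFAT2_CARIT (adjusted p = 0.00148 and 0.000415, and 0.425 and 0.299 in the authors' deposited table). Bnip3, a mitophagy gene induced by low oxygen, rose with NFAT2_CA from 93.9 ± 10.4 to 146 ± 13.6 CPM (0.64, adjusted p = 3e-06). It was lower with NFAT2_CARIT than with NFAT2_CA by 0.47 on the log2 scale (-0.47, adjusted p = 0.000342). The survival gene Bcl2l2 rose with NFAT2_CA (0.61, adjusted p = 1.44e-05) and by limma with NFAT2_CARIT (0.28, adjusted p = 0.0104), the latter lost without Control replicate 1 (0.22, adjusted p = 0.0559) or NFAT2_CARIT replicate 3 (0.22, adjusted p = 0.0505). Bcl2l14 rose with NFAT2_CA (0.52, adjusted p = 0.00538) and was lower with NFAT2_CARIT than with NFAT2_CA (-0.78, adjusted p = 0.000884). Neither Bcl2l2 nor Bcl2l14 was called in the authors' deposited table (adjusted p = 0.132 and 0.594 for NFAT2_CA against Control, 0.593 for Bcl2l2 with NFAT2_CARIT and 0.986 for Bcl2l14 between the vectors).

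**Figure D4:**
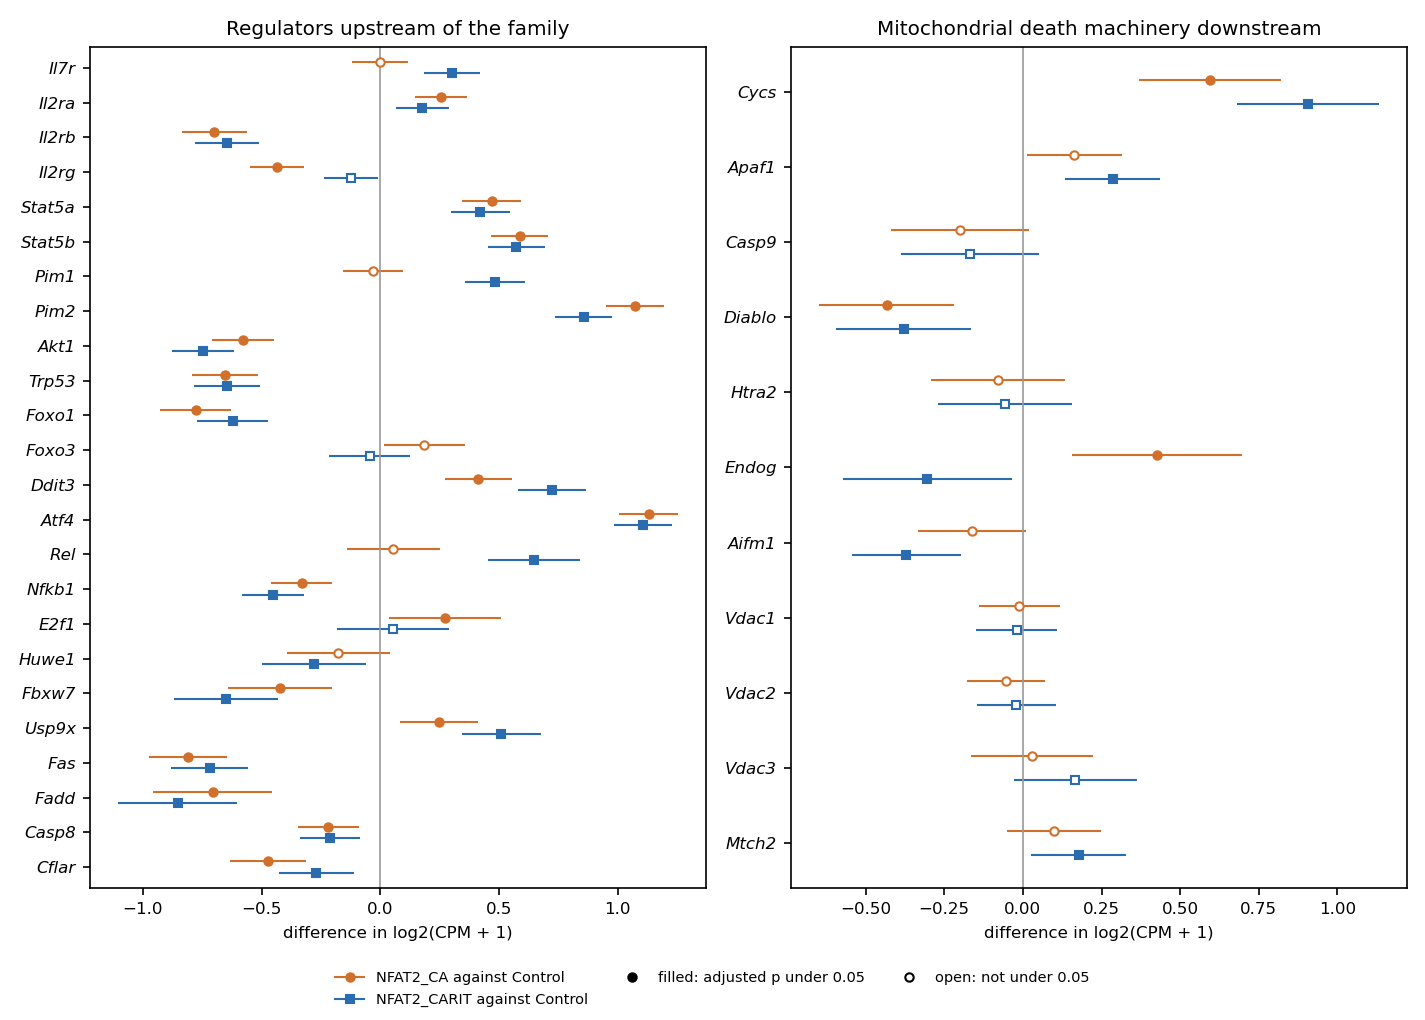
Fitted difference from Control in log2(CPM + 1), with its 95% interval, for 24 regulators upstream of the family (left) and 11 genes of the mitochondrial death machinery downstream (right); circles are NFAT2_CA, squares NFAT2_CARIT, and filled symbols have an adjusted p under 0.05. Atf4 has the largest difference upstream (1.13 and 1.11), and Cycs lies to the right of 0 with both vectors (0.59 and 0.91).

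Of the 13 genes of the mitochondrial death machinery, 3 rose and 2 fell with NFAT2_CA, and 4 rose and 4 fell with NFAT2_CARIT, so 38.5% and 61.5% were called beside 65.5% and 70.3% of all genes. Cycs, the gene for cytochrome c, rose from 9.19 ± 1.53 CPM to 14.3 ± 0.130 and 18.0 ± 1.59 CPM, by 0.59 (adjusted p = 0.000127) and 0.91 (adjusted p = 1.19e-06), the former not called in the authors' deposited table (adjusted p = 0.229). Diablo, whose product relieves inhibition of caspases, fell from Control with both vectors (-0.43, adjusted p = 0.00129, and -0.38, adjusted p = 0.00318). The authors' deposited table did not call Diablo in either comparison (adjusted p = 0.502 and 0.536).

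Of 24 tested regulators of the family, 8 rose and 11 fell with NFAT2_CA, and 10 rose and 11 fell with NFAT2_CARIT, so 79.2% and 87.5% were called beside 65.5% and 70.3% of all genes. Atf4, a stress-response factor known to drive Pmaip1, rose from 255 ± 12.8 to 558 ± 22.4 and 549 ± 20.9 CPM (1.13, adjusted p = 5.39e-11, and 1.11, adjusted p = 5.99e-11). Ddit3, which encodes the partner factor CHOP, rose by 0.41 with NFAT2_CA (adjusted p = 4.85e-05, and 0.0782 in the authors' deposited table) and by 0.72 with NFAT2_CARIT (adjusted p = 7.23e-08). Ddit3 was higher with NFAT2_CARIT than with NFAT2_CA by 0.31 (adjusted p = 0.00244, and 0.836 in the authors' deposited table). Pim2, a survival kinase, rose by 1.07 (adjusted p = 8.12e-11) and 0.86 (adjusted p = 1.21e-09), and Stat5b, which carries IL-2 and IL-7 signals to Bcl2, rose by 0.59 (adjusted p = 1.29e-07) and 0.57 (adjusted p = 1.47e-07). These genes were all among those that rose. Among those that fell, Akt1 was lower with both vectors (-0.58, limma, adjusted p = 4.72e-07, and -0.75, adjusted p = 1.73e-08). Il2rb was lower with NFAT2_CA (-0.70, adjusted p = 7.51e-08), and with NFAT2_CARIT in the authors' deposited table (-0.65, adjusted p = 9.37e-12). Bcl2 itself was lower with both vectors.

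Foxo1, a factor of resting T cells, fell from 300 ± 31.8 to 174 ± 6.16 CPM with NFAT2_CA (-0.78, adjusted p = 6.79e-08) and 194 ± 7.62 CPM with NFAT2_CARIT (-0.62, adjusted p = 8.3e-07). The death receptor gene Fas fell with both vectors (-0.81, adjusted p = 1.13e-07, and -0.72, adjusted p = 3.97e-07), as did Fadd, its adaptor (-0.71, adjusted p = 6.4e-05, and -0.85, adjusted p = 7.62e-06). Bid, the link from this receptor route to mitochondria, was also lower with both vectors. Casp8 and Cflar, which encodes an inhibitor of the route, fell too and are named here after their values were seen. With NFAT2_CA the differences were -0.22 (limma, adjusted p = 0.00445) for Casp8 and -0.47 (adjusted p = 3.7e-05) for Cflar. With NFAT2_CARIT they were -0.21 (adjusted p = 0.00518) and -0.27 (adjusted p = 0.00436). Of all genes tested, 36.5% were called lower with NFAT2_CA and 41.1% with NFAT2_CARIT. In the authors' deposited table Fadd was not called (adjusted p = 0.307 and 0.151). Casp8 was not called there either (adjusted p = 0.22 and 0.214), and Cflar was called with NFAT2_CA only (adjusted p = 0.005 and 0.161). Between the vectors, Rel, which encodes the NF-kappaB subunit c-Rel, was higher with NFAT2_CARIT than with NFAT2_CA by 0.59 (adjusted p = 0.000222) and Pim1, another survival kinase, by 0.52 (adjusted p = 8.97e-06).

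The genes whose profile over the 9 libraries was most like that of Bcl2 were Zfp1, Vti1a and Taok3, whose log2 values departed from the Bcl2 profile by a root mean square of 0.046, 0.054 and 0.058, beside 0.329 for the Bcl2 profile itself. For Bcl2l1 they were Smdt1, Cish and Ube2j2 (0.051, 0.057 and 0.060, beside 0.186). For Bcl2l11 they were Gatad2a, Med23 and Usp47 (0.034, 0.042 and 0.043, beside 0.186). These libraries fall into 3 groups, so a likeness over 9 libraries is largely a likeness of 3 group levels.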

How the data were processed

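RNA from 9 libraries was sequenced as paired ends, and the authors processed it with Partek 10 and DESeq2 on build mm10, per the submitters' processing notes. The deposited expression values are CPM, to each of which the authors added 0.0001 (checked on the file). The authors' deposited comparison table holds, per the file headers, p-values, step-up FDR values and log2 ratios between groups. The sources used here do not state the aligner, the annotation or the use of strand. With the estimated depths, 81.3 to 84.3% of low values were whole numbers of reads within 0.1 read, too few to rebuild counts. Of the listed genes, 15961 (96.7%) have the span and strand of GENCODE M21 on GRCm38, which supplied exon lengths. No per-sample column was left out.

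Differences in log2(CPM + 1) were fitted in R 4.3.3 with limma 3.58.1, which took all 9 libraries, 1 mean for each group and trended, robust empirical Bayes. Benjamini-Hochberg adjustment ran over the 13090 genes with at least 1 CPM in at least 3 libraries, and a gene was called at an adjusted p under 0.05. Differences on this scale understate those of low genes. The test was tried on simulated data. Python 3.11.15 with pandas 2.3.3, NumPy 2.4.6 and matplotlib 3.10.9 did the rest. Named are all 10 members, Nfatc1, up to 4 called genes with the largest change per direction in each list around the family, and the 3 tested genes closest in profile to Bcl2, Bcl2l1 and Bcl2l11. Some genes that this rule names are not reported here. Members and lists were chosen with earlier results of these data known. Alternatives were each library left out, a fit of the 6 libraries compared, a block for the replicate number, pseudocounts (0.5 or 5 CPM), filters (none or 10 CPM), scaling (TMM or quantile) and the authors' table.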

Additional observations from a re-analysis of the deposited data

Results flagged for a closer look

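Endog, which encodes a nuclease that leaves mitochondria during cell death, is given here because its difference from Control went in opposite directions with the 2 vectors. It was higher with NFAT2_CA (0.43 on the log2 scale, limma, adjusted p = 0.00782) and lower with NFAT2_CARIT (-0.30, adjusted p = 0.0433), and the difference between NFAT2_CARIT and NFAT2_CA itself was -0.73 (adjusted p = 0.000479). Mean levels were 5.59 ± 0.743 CPM in Control, 7.84 ± 0.706 with NFAT2_CA and 4.35 ± 0.608 with NFAT2_CARIT (SD, n = 3). The fall from Control with NFAT2_CARIT was lost in several alternatives, such as TMM factors (-0.21, adjusted p = 0.16) and without NFAT2_CARIT replicate 2 (-0.21, adjusted p = 0.196). The authors' deposited table called none of the 3 differences (adjusted p = 0.647, 0.735 and 0.944).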

How the results depend on the processing

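Of the 30 member results (10 genes in 3 comparisons), 13 kept their direction and their side of the threshold in every one of the 18 alternatives that gave them a value. The authors' deposited table called fewer members (4 for NFAT2_CA against Control and 1 between the vectors) and fewer genes (3602, 4216 and 468, in place of 8573, 9199 and 3742); the cause was not tested. Leaving out each library in turn gave 7 to 9 members for NFAT2_CA, 7 to 8 for NFAT2_CARIT and 3 to 6 between the vectors. Genes called then ranged from 7894 to 8583, from 8511 to 9342 and from 2762 to 4214. With TMM factors the uncalled differences of Bax (0.03), Bak1 (0.01) and Bbc3 (0.02) with NFAT2_CARIT against Control and of Mcl1 between the vectors (0.01) changed sign, as did that of Bax without Control replicate 3 (0.01, in a range of -0.17 to 0.01 over the libraries left out). The correlation of deviations from the group means was -0.07 to 0.26 for same-numbered pairs and over 0.1 in 1 of 9. For other-numbered pairs it was -0.28 to 0.23 and over 0.1 in 1 of 18. No clear pairing by replicate number was seen, but 3 libraries per group are too few to exclude it. The fit with the replicate number as a block called 9, 7 and 5 members, as without it, and 8559, 9173 and 3544 genes. The filter of 10 CPM left Bid without a test. Bid, on 80 to 300 reads per library, had the widest intervals of the members.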

Other observations

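Bok, which encodes an effector-like protein of the BCL2 family, was below the filter on low values and was not tested with limma. It was at 0 to 0.0425 CPM in the Control libraries, 0.260 to 0.590 CPM with NFAT2_CA and 0.952 to 1.99 CPM with NFAT2_CARIT. These values rest on an estimated 0 to 1, 7 to 14 and 19 to 76 reads per library. The 3 ranges did not overlap. Of all genes tested, 68.3% had no overlap between NFAT2_CA and Control, 73.1% between NFAT2_CARIT and Control and 44.0% between the vectors. The authors' deposited table called Bok for NFAT2_CARIT against Control (adjusted p = 0.00531), not for NFAT2_CA against Control (adjusted p = 0.0796) or between the vectors (adjusted p = 1.0). Bok was picked out after its values were seen.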
